A study of Mus musculus with 8 samples.

Results

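TRBD1 and TRBD2, the D segments of the mouse T-cell receptor (TCR) β-chain locus, were compared in 8 β-chain libraries. Each β-chain clonotype, a CDR3 nucleotide sequence with its V and J segment, was assigned by the deposited D call to TRBD1, to TRBD2 or to no D call. Summed over the mice, 24150 of 60131 clonotypes carried a TRBD1 call, 19524 a TRBD2 call and 16457 no D call, and a clonotype found in several mice was counted once in each. All mice were C57BL/6 females of 6 to 8 weeks inoculated with 200000 B16F10 melanoma cells on day 0. They received 300 mg/kg cyclophosphamide (CTX) on day 3 and 2000000 Thy1.1 Pmel-1 cells (CD8+ T cells with a transgenic, gp100-specific TCR) on day 5. Recombinant human IL-2 (10000 IU) followed daily for 3 days. The 3 CTXpre mice received no anti-CD4 antibody, and the 5 CTXpre/CD4post mice received 200 μg of clone GK1.5 weekly for 3 weeks from day 10. On day 25, Thy1.1-negative CD8+ T cells, a gate meant to hold the endogenous cells of the host, were sorted from inguinal lymph nodes and spleen, and 1 β-chain library per mouse was made from 100 ng of RNA. The files hold TCR sequences only, so the sorted cells could not be checked against their marker genes.

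A β-chain gene is assembled in the thymus in a fixed order, in which a D segment first joins a J segment and a V segment then joins the DJ product. Nucleases trim the cut ends, hairpin opening can leave palindromic bases copied from the segment's own end, and terminal transferase adds bases that no template encodes. The D segment with its flanking bases forms the centre of the CDR3, the loop that touches the peptide. TRBD1 lies before both J clusters on the chromosome and can join TRBJ1 or TRBJ2 segments by deletion, whereas TRBD2 lies after the TRBJ1 cluster and is followed by TRBJ2 alone.

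The germline segments are shown because the D call rests on few bases. Sequences are from the GRCm38 assembly and its RefSeq annotation, plus strand, 5′ to 3′. Capitals mark the D segment and lower case marks the 7 bases of flanking recombination signal on each side.

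TRBD1 (12 nt, chr6:41533201-41533212): cattgtgGGGACAGGGGGCcacggtg
TRBD2 (14 nt, chr6:41542163-41542176): cattgtgGGGACTGGGGGGGCcacaatg

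Both segments begin with the same 5 bases and differ at germline base 6, which is A in TRBD1 and T in TRBD2, and TRBD2 has the longer run of G after it. TRBJ1-1 begins 651 bases after the end of TRBD1, and TRBJ2-1 begins 577 bases after the end of TRBD2. Within the D region of a CDR3, base 6 was therefore taken as the base that tells the segments apart.

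Clonotypes with many reads, or with a feature described below, show how the D part sits in the CDR3. Each is printed from the conserved cysteine codon to the end of the CDR3, and capitals mark the bases called as D.

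TRBV14, TRBD1, TRBJ1-6: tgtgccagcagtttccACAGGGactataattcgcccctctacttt
TRBV13-3, TRBD1, TRBJ2-4: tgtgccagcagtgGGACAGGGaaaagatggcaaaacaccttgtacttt
TRBV13-2, TRBD2, TRBJ2-1: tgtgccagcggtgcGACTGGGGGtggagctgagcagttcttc
TRBV3, whole TRBD1, TRBJ1-1: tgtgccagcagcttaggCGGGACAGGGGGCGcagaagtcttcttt
TRBV16, whole TRBD2, TRBJ2-2: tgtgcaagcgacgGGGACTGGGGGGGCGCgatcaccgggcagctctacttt
TRBV2, TRBD2, TRBJ1-2: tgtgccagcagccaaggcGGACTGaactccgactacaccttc
TRBV14, no D call, TRBJ2-7: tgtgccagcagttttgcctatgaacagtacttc

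The first is the TRBD1 clonotype with most reads in the CTXpre group. It was found in 8 of 8 mice, with 46, 3 and 28 reads in CTXpre mice 1 to 3 and 23, 51, 18, 23 and 28 reads in CTXpre/CD4post mice 1 to 5. TRBV14 is also the V segment of the β chain of the Pmel-1 receptor, whose cells every mouse had received, and the sequence of that receptor was not used here. Where this clonotype came from was not tested, transferred cells among the sorted cells included. The other 6 were each found in 1 mouse. The TRBV13-3 clonotype, the TRBD1 clonotype with most reads in the CTXpre/CD4post group, had 162 reads in mouse 5, and the TRBV13-2 clonotype, the leading TRBD2 clonotype of the CTXpre group, had 94 reads in mouse 1. In CTXpre/CD4post mice the leading TRBD2 clonotype used TRBV17 and TRBJ2-4 and had 70 reads in mouse 2. Among clonotypes without a D call, the printed one had 123 reads in CTXpre/CD4post mouse 5, and the leading one of the CTXpre group used TRBV19 and TRBJ1-1 and had 36 reads in mouse 3. Both whole-segment clonotypes carry bases that read as palindromic, 1 at each end of TRBD1 and 2 at the J side of TRBD2, and had 9 and 14 reads. The TRBD2 clonotype joined to TRBJ1-2, the most abundant of its kind, had 16 reads.

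Each library held 10000 reads and between 5671 and 8529 clonotypes. TRBD1 was the more frequent call in every mouse. It took 40.1% ± 0.877 of clonotypes (SD, n = 8 mice), between 39.4% and 41.6%, and 40.2% ± 0.937 of reads. TRBD2 took 32.5% ± 0.750 of clonotypes, between 31.2% and 33.5%, and 32.1% ± 1.15 of reads. No D was called in 27.4% ± 0.409 of clonotypes, between 26.8% and 27.9%, and in 27.7% ± 1.32 of reads. By clonotypes the ranges of these 3 classes did not overlap, whereas by reads those of TRBD2 (30% to 33.55%) and no D call (26.15% to 30.7%) did. For a single mouse, the 95% Wilson interval of the TRBD1 share of clonotypes was 2.09 to 2.54 percentage points wide from end to end. Intervals cover counting error only, since no molecular identifiers are named and PCR reads are not independent molecules.

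**Figure D1:**
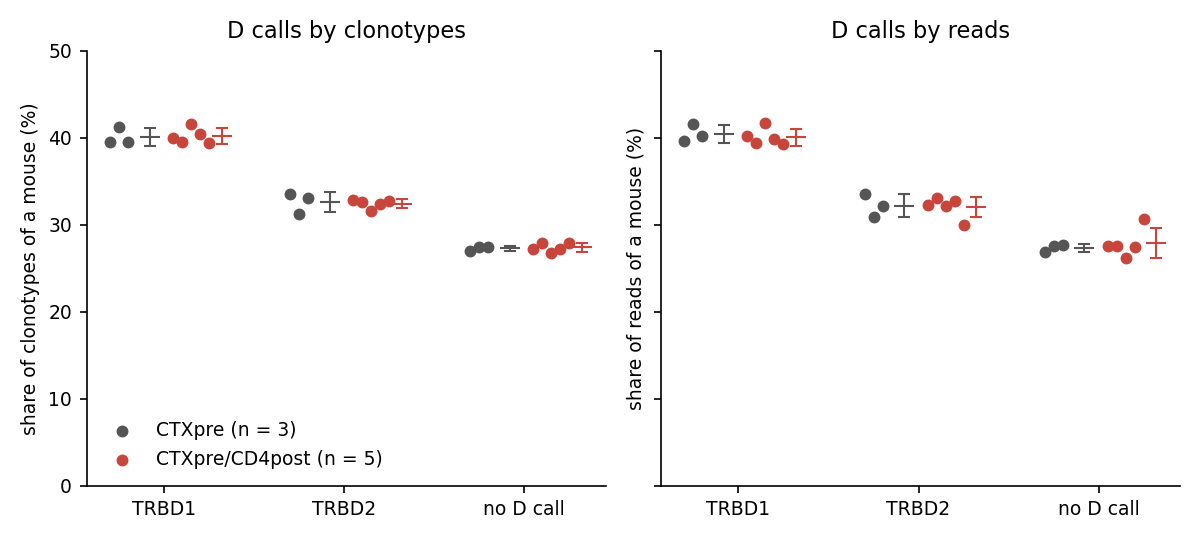
Share of each D call by clonotypes (left) and by reads (right) of a mouse, in percent, with 1 point per mouse and mean ± SD beside the points. In both groups TRBD1 lies above TRBD2 and TRBD2 above no D call, except that by reads CTXpre/CD4post mouse 5 had 30% TRBD2 and 30.7% no D call.

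Among clonotypes with a D call, the TRBD1 share was 54.1%, 56.9% and 54.4% in CTXpre mice 1 to 3 and 54.9%, 54.8%, 56.9%, 55.5% and 54.6% in CTXpre/CD4post mice 1 to 5. The groups overlapped, with means of 55.1% ± 1.54 (n = 3) and 55.3% ± 0.909 (n = 5; p = 0.571, adjusted p = 1.0, exact two-sided Mann–Whitney test). Over reads the means were 55.7% ± 1.62 and 55.6% ± 1.01 (adjusted p = 1.0, exact Mann–Whitney test). Nor did the share without a D call separate the groups, at 27.3% ± 0.276 and 27.4% ± 0.499 of clonotypes (adjusted p = 1.0, exact Mann–Whitney test). The groups were compared on 12 measures, and p was adjusted over them by the Benjamini-Hochberg procedure. With 3 and 5 mice the smallest exact p is 0.0357, so no single measure could pass the adjusted threshold of 0.05 by itself. Here and below, p-values come from tests with the mouse as the unit, each with 1 library.

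The J cluster serves as a check on the D calls, since TRBD2 lies beyond the TRBJ1 segments. TRBD1 clonotypes were joined to TRBJ1 in 43.6% ± 2.01 of cases, between 39.8% and 45.7%. Among TRBD2 clonotypes TRBJ1 was rare, with 5.56%, 5.44% and 4.96% in CTXpre mice 1 to 3 and 4.57%, 5.28%, 5.25%, 5.18% and 5.02% in CTXpre/CD4post mice 1 to 5, 1010 clonotypes in all. Clonotypes without a D call lay near TRBD1, at 39.0% ± 0.982. The TRBJ2 share was 38.5 percentage points higher for TRBD2 than for TRBD1 (higher in 8 of 8 mice, exact sign-flip permutation p = 0.00781, the smallest that 8 mice allow, adjusted p = 0.0112 over 10 within-mouse comparisons). Seen from the J side, TRBD1 made up 91.2% ± 0.727 of D calls joined to TRBJ1 and 42.3% ± 1.13 of those joined to TRBJ2, so that TRBD2 was the more frequent call in TRBJ2 joins.

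TRBD2 calls joined to TRBJ1 were concentrated in short D parts. Over the mice together, TRBJ1 was the J cluster of 13.5% of TRBD2 clonotypes with 5 to 6 nt of D, of 6.77% with 7 to 8 nt, of 2.58% with 9 to 10 nt and of 0.680% with 11 nt or more. For TRBD1 the corresponding shares were 41.7%, 45.04%, 45.9% and 43.8%. The fall with D length was thus seen for TRBD2, and the TRBD1 share stayed within a few percentage points.

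**Figure D2:**
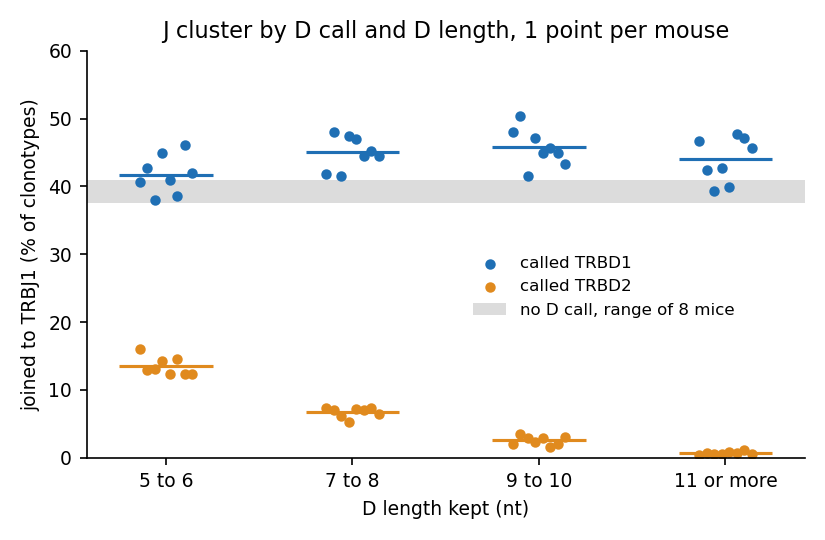
Share of clonotypes joined to TRBJ1, in percent, by the D length kept, with 1 point per mouse and a line at the mean of 8 mice for each D call. TRBD2 points fall from about 13.5% at 5 to 6 nt to 0.680% at 11 nt or more, while TRBD1 points lie between 38.1% and 50.3%, most of them above the grey range of clonotypes without a D call (37.5% to 40.9%).

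Germline base 6 split the TRBD2 calls in the same manner. With base 6 present, 2.01% ± 0.285 of TRBD2 clonotypes were joined to TRBJ1, between 1.64% and 2.49% (304 of 15212 clonotypes). Without it, in parts that are a run of G or the G run with its end, the share was 17.3% ± 2.44, between 15.2% and 22.7% (433 of 2493 clonotypes). The difference, with base 6 minus without, was -15.3 percentage points and negative in 8 of 8 mice (exact sign-flip permutation p = 0.00781, adjusted p = 0.00955 over 11 comparisons chosen after seeing the data). TRBD2 parts that matched neither germline segment gave 14.9% ± 2.02 (273 of 1819 clonotypes). In TRBD1 calls the direction was opposite, with TRBJ1 in 46.5% ± 1.82 of parts with base 6 and in 31.8% ± 2.80 of parts without it (higher with base 6 in 8 of 8 mice, exact sign-flip permutation p = 0.00781, adjusted p = 0.00955).

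The bases of the D parts show where a call could not separate the segments. Of TRBD1 parts, 75.5% ± 0.766 matched TRBD1 alone, 16.4% ± 0.550 matched both segments and 8.02% ± 0.748 neither. TRBD2 parts matched TRBD2 alone in 90.7% ± 0.416 of cases and neither segment in 9.29% ± 0.416, and 0 matched both. A match here allows palindromic bases at a whole end. All 3968 clonotypes whose D part matches both segments were therefore listed as TRBD1. Parts made of 5 G alone were called TRBD1 in 769 of 769 clonotypes, whereas parts of 6 G (582 clonotypes) and of 7 G (694 clonotypes) were all called TRBD2. The TRBJ1 shares of these 3 kinds were 28.6%, 26.1% and 13.98%. Restricting the calls to parts with base 6 left a TRBD1 share of 54.5% ± 0.914, against 55.3% ± 1.08 over all D calls, and 39.5% ± 0.925 where such parts were joined to TRBJ2.

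TRBD1 contributed fewer bases than TRBD2. Among parts that could be placed at 1 germline position, TRBD1 kept 6.77 nt ± 0.0484 of germline sequence and TRBD2 8.65 nt ± 0.0362. The D length given next is that of the called part, with any palindromic bases. The mean D length was 7.54 nt ± 0.0532 for TRBD1, between 7.44 and 7.62 nt over the mice, and 9.11 nt ± 0.0481 for TRBD2, between 9.05 and 9.20 nt. Medians were 7 and 9 nt. The difference of 1.57 nt ± 0.0247 had the same sign in 8 of 8 mice (exact sign-flip permutation p = 0.00781, adjusted p = 0.0112). Parts of 5 nt, the shortest called, made up 23.0% ± 0.687 of TRBD1 and 6.01% ± 0.384 of TRBD2 clonotypes. Parts that match both segments (16.4% ± 0.550 of TRBD1 parts) were all listed as TRBD1, among them the 769 parts of 5 G. The TRBD1 mean includes them, and the contrast at 5 nt rests partly on how such parts were listed. D length did not pass the test between groups, with TRBD1 means of 7.53 nt ± 0.0209 in CTXpre and 7.54 nt ± 0.0686 in CTXpre/CD4post mice, and TRBD2 means of 9.08 nt ± 0.0286 and 9.12 nt ± 0.0550 (adjusted p = 1.0 for both, exact Mann–Whitney test).

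**Figure D3:**
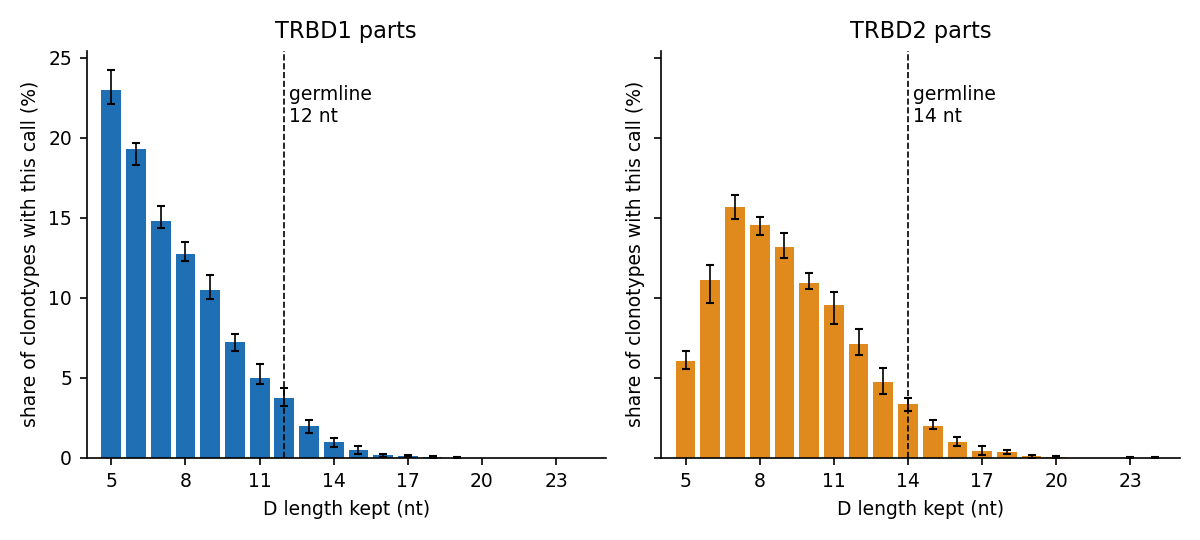
Distribution of the D length kept, in nt, as percent of clonotypes called TRBD1 (left) and TRBD2 (right). Bars give all clonotypes together and whiskers the lowest and highest of 8 mice, and the dashed line marks the germline length. TRBD1 is highest at 5 nt (23.0%), and TRBD2 peaks at 7 nt.

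Relative to their germline lengths the segments had lost similar numbers of bases, 5.23 nt ± 0.0484 of TRBD1 and 5.35 nt ± 0.0362 of TRBD2, among parts that could be placed at 1 position (92.0% and 87.7% of clonotypes). The difference of 0.121 nt was small beside that in length, though of the same sign in 8 of 8 mice (exact sign-flip permutation p = 0.00781, and adjusted p = 0.0112 when put in place of D length among the 10 within-mouse comparisons, an alternative added after seeing the data). Both losses hold for called parts only. As no part under 5 nt was called, the 12 nt TRBD1 reaches this limit after fewer lost bases than the 14 nt TRBD2. Joins with larger losses are mostly missing from both means, so the losses of all joins cannot be compared here. The TRBD1 mean also includes the parts that match both segments, all listed as TRBD1, whereas TRBD2 parts of 6 G fit more than 1 position and are left out. Among parts with germline base 6, V-side losses were 1.82 nt for TRBD1 and 2.43 nt for TRBD2. J-side losses in those parts were 2.92 and 2.75 nt, so the closeness of the 2 means depends on the parts counted. The whole segment was kept in 383 TRBD1 and 343 TRBD2 clonotypes. There were 815 different D parts called TRBD1 and 896 called TRBD2. The 3 most frequent were CAGGG (1227 clonotypes), CAGGGG (1004) and GGGGG (769) for TRBD1, and CTGGGGG (902), CTGGGGGG (856) and GGGGGGG (694) for TRBD2. All 6 lack the first 4 germline bases.

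Among called parts, loss was distributed differently between the ends. To compare parts that hold the base by which the segments differ, ends were compared among the 18234 TRBD1 and 15212 TRBD2 clonotypes with base 6. By this choice such parts retain the middle of the segment. As no part under 5 nt was called, a large loss at one end leaves less room for loss at the other in the 12 nt TRBD1 than in the 14 nt TRBD2. The differences between ends therefore hold for called parts only, and the ends of all joins cannot be compared here. At the V side, TRBD1 had lost 1.82 nt ± 0.0320 and TRBD2 2.43 nt ± 0.0184. The V-side end was whole in 36.1% ± 0.687 of TRBD1 parts, between 35.1% and 37.2%, and in 22.6% ± 0.241 of TRBD2 parts, between 22.2% and 23.0%. At the J side the order was reversed, with a loss of 2.92 nt ± 0.0304 for TRBD1 and 2.75 nt ± 0.0399 for TRBD2. The J-side end was whole in 10.6% ± 0.418 of TRBD1 parts, between 9.98% and 11.1%, and in 13.8% ± 0.996 of TRBD2 parts, between 11.99% and 15.2%. All 4 differences had 1 sign in 8 of 8 mice (exact sign-flip permutation p = 0.00781, adjusted p = 0.00955 each).

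**Figure D4:**
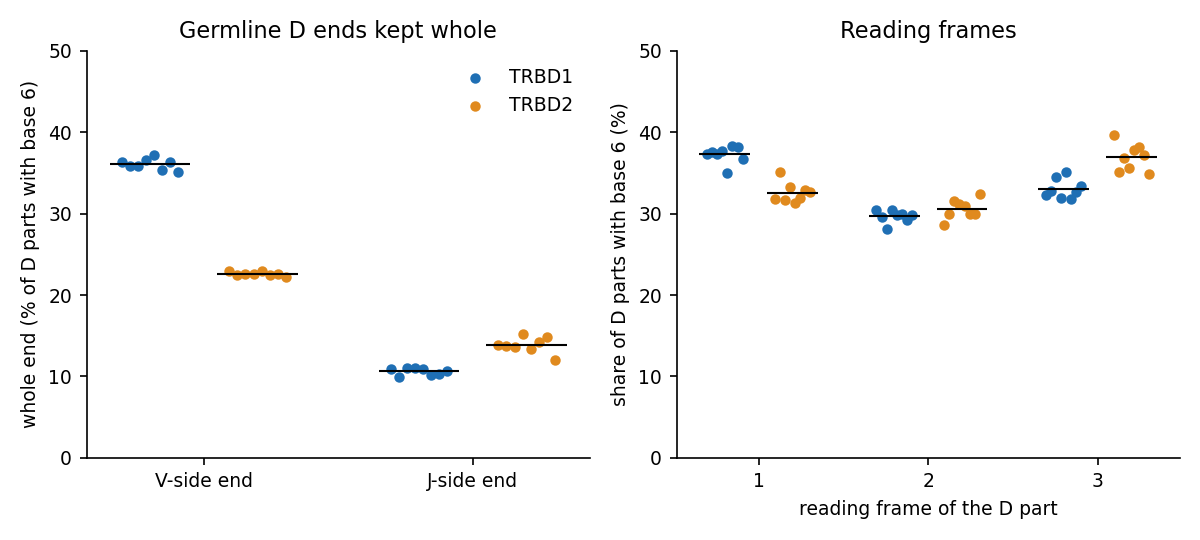
D parts with germline base 6, with 1 point per mouse and a line at the mean of 8 mice. Left, percent of parts whose V-side or J-side germline end is whole. Right, percent of parts in each reading frame. TRBD1 exceeds TRBD2 at whole V-side ends (36.1% against 22.6%) and in frame 1 (37.3% against 32.6%).

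Palindromic bases are left when an opened hairpin keeps part of the opposite strand, and can be seen only at an end that was not trimmed. They were recognized by sequence alone, so added bases that happen to match the palindrome are counted among them. Among whole V-side ends, which are identical in the germline segments and their flanks, 58.3% ± 2.25 of TRBD1 and 57.8% ± 2.88 of TRBD2 parts carried them. The difference of -0.50 ± 2.73 percentage points was below the spread between mice (higher for TRBD2 in 4 of 8, exact sign-flip permutation p = 0.609). Among whole J-side ends, 48.1% ± 3.75 of TRBD1 and 66.7% ± 2.77 of TRBD2 parts carried them (higher for TRBD2 in 8 of 8 mice, exact sign-flip permutation p = 0.00781, adjusted p = 0.00955). Parts with base 6 also differed in J partner, with TRBJ1 in 46.5% for TRBD1 and in 2.01% for TRBD2. Neither this difference nor the J-side loss above was compared within TRBJ2 joins, and a part of the J partner in them was not tested.

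Unassigned bases, those the alignment gave to no segment, stand for added nucleotides and for D or V and J bases too few to be recognized. Before the D, TRBD1 clonotypes had 1.21 nt ± 0.0233 and TRBD2 clonotypes 1.27 nt ± 0.0399. The difference of 0.0593 nt ± 0.0342 was positive in 8 of 8 mice (exact sign-flip permutation p = 0.00781, adjusted p = 0.0112). After the D, TRBD1 had 1.36 nt ± 0.0278 and TRBD2 1.22 nt ± 0.0329, a difference of -0.137 nt ± 0.0326, lower for TRBD2 in 8 of 8 mice (exact sign-flip permutation p = 0.00781, adjusted p = 0.0112). Both junctions lacked unassigned bases in 16.02% ± 0.570 of TRBD1 and 17.9% ± 0.459 of TRBD2 clonotypes. Leaving out clonotypes of 1 read gave a V-D difference of 0.0325 nt, which no longer passed, and so did leaving out D parts that match both segments or neither (0.0326 nt). Among parts with base 6 the difference was 0.0482 nt and passed.

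At the D-J junction of TRBD2 the groups did not overlap. Unassigned bases averaged 1.17, 1.20 and 1.21 nt in CTXpre mice 1 to 3 and 1.23, 1.23, 1.22, 1.28 and 1.23 nt in CTXpre/CD4post mice 1 to 5. Every CTXpre/CD4post mouse lay above every CTXpre mouse, by 0.0460 nt between the means of 1.19 nt ± 0.0240 and 1.24 nt ± 0.0247 (p = 0.0357, adjusted p = 0.214, exact Mann–Whitney test). The result did not pass the adjustment. The other 3 comparisons of unassigned bases around TRBD1 and TRBD2 had adjusted p = 1.0 (exact Mann–Whitney test), with means that differed by at most 0.0104 nt.

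Where no D was called, the space between V and J was short. It averaged 3.72 nt ± 0.114, between 3.56 and 3.93 nt, and was 5 nt or more in 44.0% ± 1.22 of these clonotypes. V and J overlapped in 10.4% ± 0.688. The CDR3 was correspondingly the shortest of the 3 classes, at 39.1 nt ± 0.0968, against 41.9 nt ± 0.108 with TRBD1 and 43.5 nt ± 0.0928 with TRBD2. Its difference from all clonotypes with a D call was -3.53 nt, and TRBD2 gave a CDR3 1.59 nt longer than TRBD1 (both in 8 of 8 mice, exact sign-flip permutation p = 0.00781, adjusted p = 0.0112). As no D part under 5 nt was called, a clonotype with a shorter space between V and J falls in the class without a D call by rule. The difference of -3.53 nt is thus set in part by how that class is formed, and its p-value is no independent support.

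The reading frame decides which codons a D segment supplies. Frames were numbered by the germline base that begins the first full codon. Among parts placed at 1 position, TRBD1 was read in frame 1 in 36.4% ± 1.09, in frame 2 in 30.3% ± 0.681 and in frame 3 in 33.3% ± 1.18 of clonotypes. TRBD2 was read in frame 1 in 32.7% ± 1.05, in frame 2 in 30.8% ± 1.39 and in frame 3 in 36.5% ± 1.49. Frame 1 was thus the most frequent for TRBD1 by the mean over mice and frame 3 for TRBD2. The frame 1 share was lower for TRBD2 in 8 of 8 mice, with a difference of -3.75 percentage points (exact sign-flip permutation p = 0.00781, adjusted p = 0.0112), and of -4.71 percentage points among parts with base 6. In those parts frame 3 was higher for TRBD2 by 3.86 percentage points in 8 of 8 mice (exact sign-flip permutation p = 0.00781, adjusted p = 0.00955), whereas frame 2 did not pass (higher in 6 of 8 mice, p = 0.203, adjusted p = 0.223, exact sign-flip permutation test).

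Most clonotypes of each class were seen in 1 read, 83.5% ± 4.20 for TRBD1, 82.9% ± 4.15 for TRBD2 and 82.2% ± 4.68 without a D call. The TRBD2 share was lower than the TRBD1 share in 7 of 8 mice, with a mean difference of -0.506 percentage points (exact sign-flip permutation p = 0.0391, adjusted p = 0.0434). This call was lost when any of 7 mice was left out and held without CTXpre/CD4post mouse 1 alone. Clonotypes without a D call were also seen in 1 read less often than those with one, with a difference of -1.03 percentage points and the same sign in 7 of 8 mice (exact sign-flip permutation p = 0.0156, adjusted p = 0.0195). The differences were small beside the range between mice, from 77.6% to 89.6% for TRBD2.

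Among abundant clonotypes, those of 10 or more reads, the D calls differed more between mice. TRBD1 made up 7 of 10, 5 of 5 and 5 of 6 abundant clonotypes with a D call in CTXpre mice 1 to 3, and 16 of 29, 6 of 14, 9 of 21, 22 of 43 and 36 of 59 in CTXpre/CD4post mice 1 to 5. As shares these were 70.0%, 100% and 83.3%, against 55.2%, 42.9%, 42.9%, 51.2% and 61.0%. The groups did not overlap, with means of 84.4% ± 15.03 and 50.6% ± 7.90 (p = 0.0357, adjusted p = 0.214, exact Mann–Whitney test), and the difference did not pass the adjustment. Few clonotypes stood behind the CTXpre shares, and the 95% Wilson interval was 56.6% to 100% for 5 of 5 and 43.6% to 97.0% for 5 of 6. With 5 or more reads as the limit, the shares were 57.6%, 70.0% and 75.0% in CTXpre mice and between 48.4% and 57.5% in CTXpre/CD4post mice, and the difference, CTXpre/CD4post minus CTXpre, was -14.07 percentage points. Without the TRBV14 clonotype found in 8 mice it was -33.7 percentage points. Both settings were chosen after seeing the data and left the exact p at 0.0357.

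**Figure D5:**
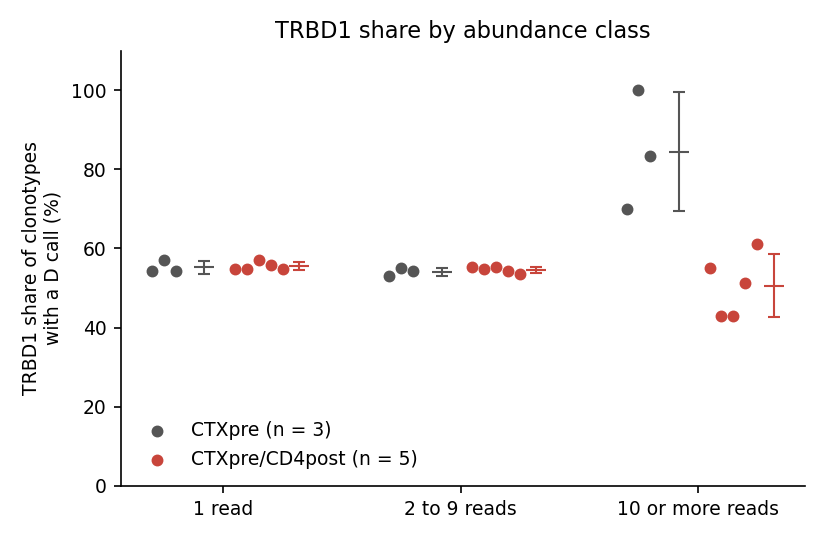
TRBD1 share of clonotypes with a D call, in percent, by the reads of a clonotype, with 1 point per mouse and mean ± SD beside the points. The groups lie together for 1 read and for 2 to 9 reads and apart for 10 or more reads, where CTXpre mice rest on 10, 5 and 6 clonotypes.

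Within mice, the TRBD1 share of abundant clonotypes exceeded that of clonotypes of 1 read by 7.88 percentage points ± 20.1, in 5 of 8 mice (p = 0.32, exact sign-flip permutation test). The difference was 2.89 percentage points without CTXpre mouse 2, 4.88 without CTXpre mouse 3 and between 6.77 and 11.06 on leaving out any other mouse. Clonotypes of 1 read had a TRBD1 share of 55.4% ± 1.17 and those of 2 to 9 reads 54.4% ± 0.854, so the spread arose in the abundant class.

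Shares of V segments were set against the TRBD1 share of D calls over the mice, and none passed the adjusted test. Ranked by Spearman rho among 19 TRBV segments with at least 50 clonotypes in every mouse, the share of TRBV4 was the most like it, with a rho of 0.714 (exact permutation p = 0.0576, adjusted p = 0.813) and a Pearson r of 0.594 (permutation p = 0.122, adjusted p = 0.556) over 8 mice, and r of 0.723 without the 2 mice farthest from the median. TRBV20 came next, with a rho of 0.571 (exact permutation p = 0.151, adjusted p = 0.813) and an r of 0.506 (permutation p = 0.193, adjusted p = 0.611), and its r fell to 0.273 without such mice. By Pearson r the order was different. TRBV16 had an r of 0.612 (permutation p = 0.114, adjusted p = 0.556, and -0.38 without such mice), and TRBV31 had the r farthest from 0, at -0.76 (permutation p = 0.0304, adjusted p = 0.556), which became 0.192 without such mice.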

How the data were processed

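TCR transcripts were amplified by the authors in nested PCR and read paired-end on a MiSeq. After adapter and length trimming, MiXCR (version and D-call rule not given in the sources used here) aligned the reads, and VDJtools separated the chains. The deposited counts are reads per clonotype after down-sampling by the authors to 10000 reads per library. The deposited fraction is count divided by that total and was not used further. Segment ends within the CDR3 are deposited positions, and mm10 is the build in the submitters' processing notes. D length, unassigned bases and matches to germline segments (GRCm38, the same build, RefSeq) were computed in Python 3.11.15 with numpy 2.4.6, pandas 2.3.3 and scipy 1.17.1.

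Groups (3 and 5 mice) were tested with an exact Mann–Whitney test (two-sided, 56 splits), and calls within mice by the exact two-sided sign-flip test over 256 sign patterns, with Benjamini-Hochberg adjustment within 12 and 10 comparisons (threshold 0.05). Differences between groups of within-mouse differences were adjusted over 10. The 11 comparisons by germline base 6 were added after seeing the data. The scripts were tested on simulated data. Printed clonotypes have most reads per D class and group, keep a whole D, or join TRBD2 to TRBJ1. No model was fitted across many features. Correlations of 19 TRBV segments with the TRBD1 share were given permutation p-values, adjusted over the 19 for each coefficient. Alternatives covered 1-read clonotypes, CDR3 ends, ambiguous or short D parts, TRBJ2 joins, medians, read weights, abundant clonotypes and each mouse. The α-chain libraries were used only to count their D calls. The members and lists were chosen with earlier results of these data known.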

Additional observations from a re-analysis of the deposited data

Results flagged for a closer look

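One mouse stood apart in the TRBD2 D-J junction. CTXpre/CD4post mouse 4 had 1.28 unassigned nt there, the highest of its group, with a gap of 0.0478 nt to the next mouse in a range of 0.0632 nt (ratio 0.756, limit 0.71 for 5 mice). It was the only such mouse in 22 results, and chance flags about 1 group in 20.

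The within-mouse difference in TRBD1 share between abundant clonotypes and clonotypes of 1 read was 29.2 ± 13.6 percentage points in CTXpre mice and -4.89 ± 8.51 in CTXpre/CD4post mice. The groups differed by -34.05 percentage points and did not overlap (p = 0.0357, adjusted p = 0.357, exact Mann–Whitney test). The difference did not pass the adjustment over 10 comparisons. It restates the group difference in the abundant share (-33.8 percentage points), since the TRBD1 share of 1-read clonotypes lay between 54.3% and 57.2% in every mouse.

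D calls also appeared in the α-chain libraries, which the comparisons above do not use. Of 53249 α-chain clonotypes, 1054 (1.98%) carried a D call, 994 of TRDD2 and 60 of TRDD1, D segments of the δ-chain locus, which lies within the α-chain locus. Over the mice the share was between 1.62% and 2.19%, and 0 of these calls were TRBD1 or TRBD2.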

How the results depend on the processing

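No group comparison passed the adjusted threshold under any alternative, and values near 0 changed sign. The 9 within-mouse differences that passed kept their direction or came to 0, and the calls lost are given here. The cause of each change was not tested.

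Group differences are CTXpre/CD4post minus CTXpre. TRBD1 D length gave -0.0855 nt without clonotypes of 1 read, -0.0103 with parts under 6 nt as no call, -0.0168 with ambiguous parts (matching both segments or neither) as no call and -0.0635 as means over reads. TRBD1 V-D bases gave -0.000265 nt in CDR3s that run from C to F or W, -0.00352 with parts under 6 nt as no call and -7.87e-05 in TRBJ2 joins. Without 1-read clonotypes, TRBD1 D-J bases gave -0.0163 nt and V-J bases without a D call 0.0400 nt. The clonotype share without a D call gave -0.0971 percentage points with parts under 6 nt and -0.106 with ambiguous parts as no call. The TRBD1 share of D calls gave, by clonotypes, -0.418 in TRBJ2 joins and -0.171 in those with base 6, and by reads 0.0171 with parts under 6 nt as no call and 0.205 without the 10 most abundant clonotypes of a mouse.

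The V-D difference between TRBD2 and TRBD1 was no longer called without 1-read clonotypes (0.0325 nt) or ambiguous parts (0.0326 nt). As medians, the V-D and D-J differences were 0, and the CDR3 difference of 1.125 nt was not called. The difference in 1-read share, TRBD2 minus TRBD1, was lost with parts under 6 nt as no call (-0.215), with ambiguous parts as no call (-0.701), in TRBJ2 joins (-0.184) and without the 148 clonotypes shared by CTXpre/CD4post mice 1 and 2 (-0.440). That of no D call minus D call was lost under the first 3 (-0.599, -0.461 and -1.27).

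Leaving out each mouse in turn, TRBD1 shares of D calls differed between groups by -0.301 to 1.09 (clonotypes) and -0.899 to 0.718 (reads) percentage points, and shares without a D call by -0.0463 to 0.269 and -0.158 to 0.979. TRBD1 D length ranged from -0.0101 to 0.0352 nt. V-D bases ranged from -0.0133 to 0.00844 nt (TRBD1) and -0.0240 to 0.0110 nt (TRBD2), TRBD1 D-J bases from -0.00595 to 0.0229 nt and V-J bases from -0.151 to 0.00247 nt. The TRBD1 share of abundant clonotypes ranged from -41.1 to -26.1, and its excess over that of 1-read clonotypes within mice from 2.89 to 11.06. The 1-read share of TRBD2 minus TRBD1 ranged from -0.621 to -0.417, called only without CTXpre/CD4post mouse 1.

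Mice 1 to 3 of each group share only a number, and deviations over 36 D-J combinations correlated at 0.282, -0.165 and 0.187. With the number as a replicate block, the share of reads without a D call differed by -0.240 percentage points and TRBD1 V-D bases by -0.0103 nt, and 0 comparisons passed, since 3 pairs allow no exact permutation p below 0.25.

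At 10000 reads, a share of up to 0.03% of a library can go undetected.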
